A study of Caenorhabditis elegans with 2 samples.

Results

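Nuclear hormone receptor genes were taken as the protein-coding genes of the worm annotation (Ensembl release 115, build WBcel235, also called ce11) whose symbol starts with nhr-. The rule found 269 of 19973 protein-coding genes, with 433 of 29314 annotated 5′ ends. It uses the symbol only, so receptors with other names, such as daf-12, are not among them and are given at the end. Chromatin was immunoprecipitated with an antibody to EFL-1, an E2F transcription factor of Caenorhabditis elegans, and sequenced (ChIP-seq). The material was whole L1 larvae of mixed sex and unknown age from strain MT10430, which carries lin-35(n745), in 1 group of 2 biological replicates numbered 2 and 3. Both replicates carry the lin-35 allele, and no other genotype was analysed here, so nothing below separates the effect of that allele. Whole animals were used, so few cells with strong binding and many cells with weak binding cannot be told apart. The read depth is unknown, because the deposited peak lists hold no read totals. The control experiment that the labels name was not analysed here, so no peak was newly set against an input. Whether the submitters' own peak scores already use that control is unknown.

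Nuclear hormone receptors are transcription factors with a zinc-finger DNA-binding domain and, in most members, a ligand-binding domain that senses sterols, fatty acids or other small lipophilic molecules. The family is far larger in nematodes than in insects or vertebrates, and most of the extra worm genes descend from an ancestor related to HNF4. Members control fat metabolism, moulting, developmental timing and the response to starvation and foreign compounds. E2F proteins bind promoters of cell cycle and other genes, and the pocket protein LIN-35, the worm relative of the retinoblastoma protein, represses genes together with them.

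A gene was counted as bound when a peak had its summit in a window around 1 of its 5′ ends, which ran from 1000 bp upstream to 500 bp downstream. The peaks are the 4534 that the submitters kept by the irreproducible discovery rate (IDR), which compares the ranking of peaks in replicates. They are also the 4534 regions of highest signal in the submitters' joint list of both replicates. A kept peak therefore need not rank alike in both. Of the receptor genes, 39 of 269 (14.5%) were bound, against 3922 of all 19973 genes (19.6%). The homeobox genes of the ceh class, another transcription factor family, had 9 of 63 bound (14.3%). Each share is a description of 1 list made from both replicates, and the share in each replicate alone is given below.

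Most receptor genes lie on chromosome V, which holds 167 of the 269. There 22 of 167 receptor genes were bound (13.2%), against 12.9% of all genes on that chromosome. Off chromosome V the counts were 17 of 102 receptor genes (16.7%), against 21.9% of all genes there. The chromosomes did not all go the same way. On X, 6 of 23 receptor genes were bound (26.1%), against 12% of the other genes, and on IV 8 of 33 (24.2%), against 20.0%. On I, 1 of 23 was bound (4.35%), against 28.2% of the other genes, and on II 2 of 15 (13.3%), against 19.8%. None of the 8 receptor genes on III was bound, against 30.5% of the other genes there. A rough upper limit for counting error, taken as 3 counts over the total, is 37.5%. The nearness on chromosome V belongs to the whole IDR list. With its 2267 strongest peaks alone, 3.59% of receptor genes on V were bound, against 7.35% of all genes there. The smaller sets on the other chromosomes lay on both sides of theirs.

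**Figure D1:**
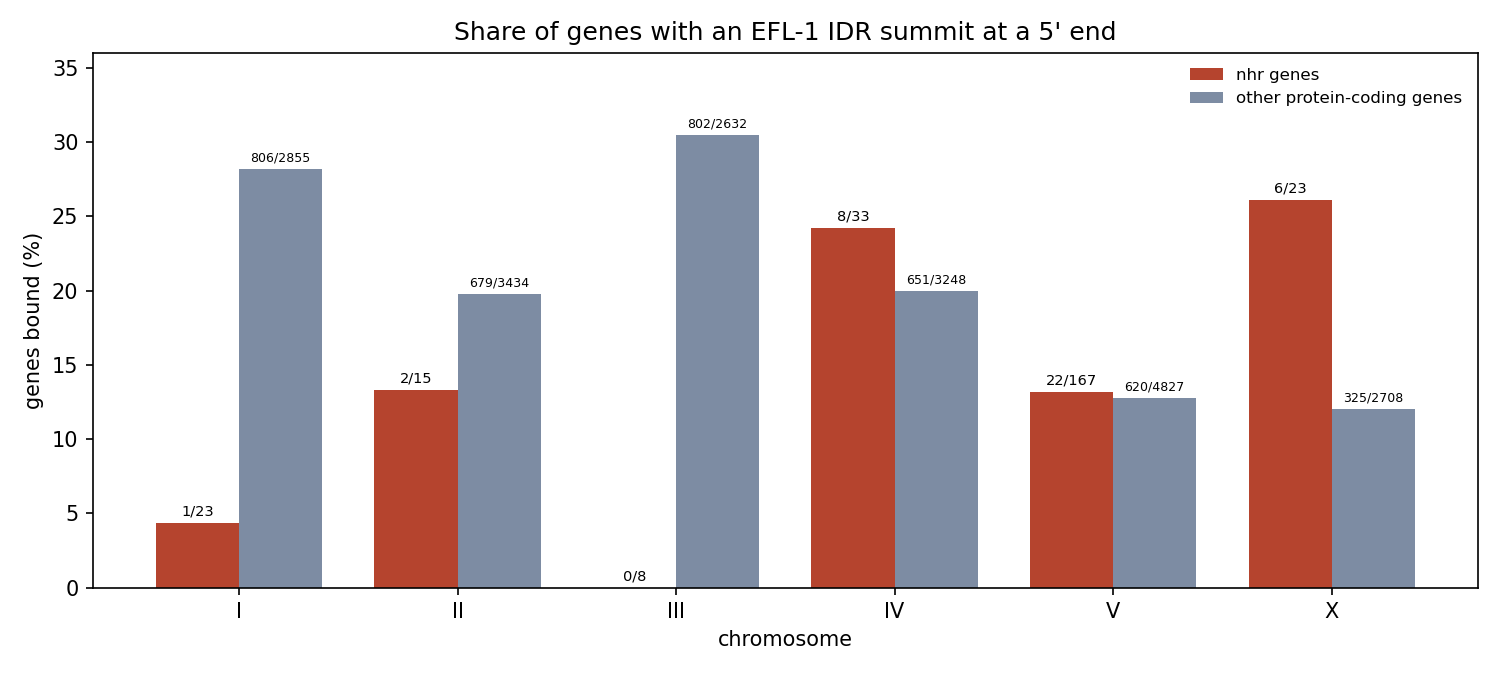
Share of genes with an IDR peak summit in the window of a 5′ end (vertical axis, %), by chromosome, for nhr genes and for all other protein-coding genes, with counts above the bars. The nhr share is near the other genes on V (13.2% against 12.8%), above them on X (26.1% against 12%) and below them on I (4.35% against 28.2%).

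By position within chromosome V the receptor shares lay close together and those of the other genes farther apart. In the outer parts of the chromosome 14 receptor genes were bound (12.6% of those there), against 8.99% of the other genes. In its middle part the counts were 8 of 56 receptor genes (14.3%), against 16.2%. Receptor genes with a single annotated 5′ end were bound in 16 of 174 cases (9.2%), against 16.4% of the other genes. Those with 2 or more 5′ ends, which have more window to hold a summit, were bound in 23 of 95 cases (24.2%), against 29.1%. Where less than 1000 bp separated a gene from its upstream neighbour, 15 of 100 receptor genes were bound (15%), against 25.4% of the other genes. With a larger gap the shares were 24 of 169 receptor genes (14.2%), against 13.6%. The family's share was thus below that of other genes where the upstream neighbour was close, and near it where the neighbour was far.

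The peaks at bound receptor genes were weak members of the list. Signal is the submitters' own peak score, and the IDR list spans 46.3 to 9789 with a median of 125. The strongest window peak of the bound receptor genes had a median signal of 75.6 and a median rank of 3319, against 168 and 1787 for the other bound genes. On a scale where 100 is the strongest peak, the median percentile was 26.8 for the receptor genes, against 60.6 for the other bound genes and 59.0 for those on chromosome V. With the list cut into 4 equal parts, from strongest to weakest, the receptor genes numbered 5, 5, 14 and 15 (12.8%, 12.8%, 35.9% and 38.5%). The other bound genes had 33.9%, 26.8%, 22.1% and 17.3% in the same order, so the receptors leaned to the weak end and the other genes to the strong end.

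**Figure D2:**
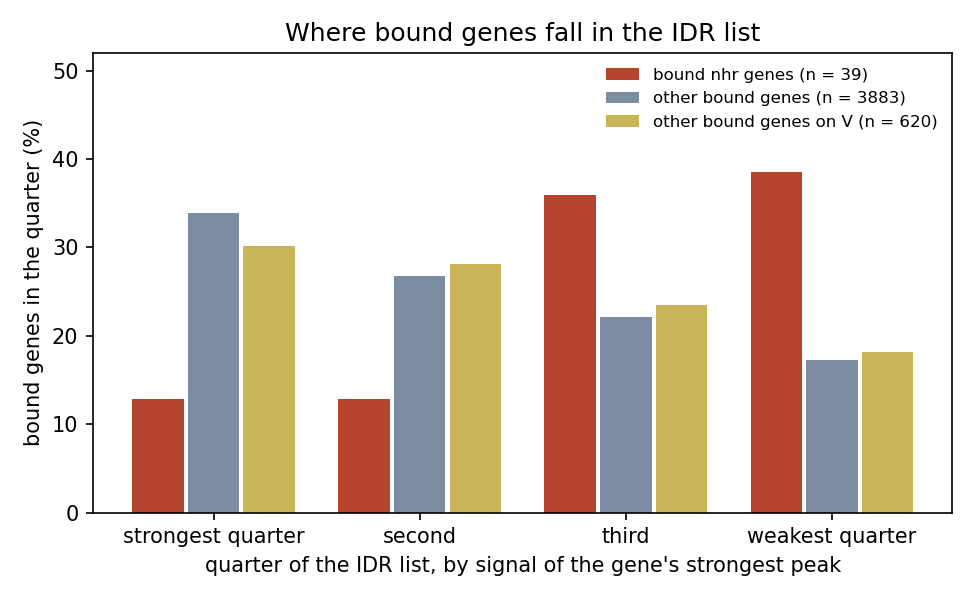
Share of bound genes (vertical axis, %) whose strongest window peak falls in each of 4 equal parts of the 4534 IDR peaks, ordered by signal, for nhr genes, for other bound genes and for other bound genes on V. The nhr genes go up to 38.5% in the weakest part, and the other bound genes go down to 17.3%.

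The strongest peaks at receptor genes stood at rank 554 and below. nhr-47 on chromosome V had the highest, at 5505129-5505364, with a joint signal of 492.4 and a summit 16 bp upstream of its 5′ end. Replicate 2 gave it a signal of 290 (rank 566) and replicate 3 a signal of 199 (rank 563), so both placed it alike. That summit also lies within the window of dnj-19, a gene of the DnaJ chaperone family, and inside the noncoding gene C24G6.10. nhr-142 came next with 480.5, 286 in replicate 2 and 189 in replicate 3, but its summit lies 519 bp upstream of it and only 158 bp from the 5′ end of F44E7.9. nhr-256 had 356.6, with 226 in replicate 2 and 127 in replicate 3, and a summit 78 bp upstream. These 3 genes lie on chromosome V, and of the 3 only nhr-256 had a peak in no other gene's window.

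The sequences of selected peaks show what lies under the summits. Each is 121 bases of the RefSeq WBcel235 genome centred on the summit, read in the direction of the receptor gene. In the first set the capitals mark the last 5 letters of the E2F words TTTCCCGC, TTTGGCGC, TTTCGCGC and TTTGCCGC, on either strand, where neighbouring matches may overlap. They are the strongest window peak, the peak with the most such matches among weak window peaks, and the strongest distal peak of the family.
nhr-47 (chrV:5505177-5505297, plus strand): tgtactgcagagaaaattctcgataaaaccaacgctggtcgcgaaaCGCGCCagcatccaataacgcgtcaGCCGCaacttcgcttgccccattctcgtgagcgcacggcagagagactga
nhr-65 (chrV:18838951-18839071, plus strand): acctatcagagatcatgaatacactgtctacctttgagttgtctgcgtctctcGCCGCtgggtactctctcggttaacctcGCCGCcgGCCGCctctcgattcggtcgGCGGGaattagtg
nhr-88, distal (chrII:2974024-2974144, plus strand): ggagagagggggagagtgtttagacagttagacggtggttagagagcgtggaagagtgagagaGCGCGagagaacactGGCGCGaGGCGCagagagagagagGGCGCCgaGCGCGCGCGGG

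In the second set the capitals mark the word GAGAG, and likewise the word GTCTC, on either strand. They can overlap each other, and they were chosen after the sequences were seen. nhr-256 and nhr-57 are near-promoter peaks of the stronger 2267, nhr-40 and nhr-12 come from the weak end, and nhr-46 is the strongest intronic peak.
nhr-256 (chrV:1743633-1743753, plus strand): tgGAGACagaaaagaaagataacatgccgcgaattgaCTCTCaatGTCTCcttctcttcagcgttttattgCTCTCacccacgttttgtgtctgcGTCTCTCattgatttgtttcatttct
nhr-57 (chrV:4131640-4131760, plus strand): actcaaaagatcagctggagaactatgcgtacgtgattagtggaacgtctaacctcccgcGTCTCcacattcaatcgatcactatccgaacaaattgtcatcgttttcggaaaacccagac
nhr-40 (chrX:2598975-2599095, plus strand): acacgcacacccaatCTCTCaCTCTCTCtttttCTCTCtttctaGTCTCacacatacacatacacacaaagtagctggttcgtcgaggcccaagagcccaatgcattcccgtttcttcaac
nhr-12 (chrV:10084151-10084271, minus strand): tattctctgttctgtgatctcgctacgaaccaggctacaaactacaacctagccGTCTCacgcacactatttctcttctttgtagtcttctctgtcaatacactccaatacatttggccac
nhr-46, intronic (chrIV:5754155-5754275, minus strand): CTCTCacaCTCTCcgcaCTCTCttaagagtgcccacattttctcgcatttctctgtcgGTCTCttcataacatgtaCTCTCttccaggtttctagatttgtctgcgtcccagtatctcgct

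nhr-49, a relative of HNF4 that controls fat desaturation and the fasting response, had 2 window peaks. The stronger, at chromosome I 9869196-9869419, had a signal of 354.6 and lay 351 bp upstream, with 207 in replicate 2 and 145 in replicate 3. The weaker, at 9870916-9871231 in an intron, had 48.01 and lay 154 bp upstream of another of its 5′ ends, with 37.5 in replicate 2 and 9.83 in replicate 3. The first ranked 832 in the joint list and 853 and 819 in the replicates, and the second ranked 4440 jointly but 10090 in replicate 3. nhr-1 on X had 271.4 (162 and 111.1 in replicates 2 and 3) at 314 bp upstream. nhr-48 on X, of the receptor group that holds daf-12, had 210.2 (122 and 93.9) at 581 bp upstream. nhr-228 had 174.6 (111.3 and 66.5) at 10 bp, and nhr-119 on II had 165.3 (101 and 63.9) at 412 bp. nhr-57, a gene induced by low oxygen through HIF-1, had 132.8 (82.0 and 45.9) at 189 bp, and nhr-182 had 125.8 (66.9 and 53.6) at 19 bp. For each of these 6 genes no other gene's window held the summit.

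**Figure D3:**
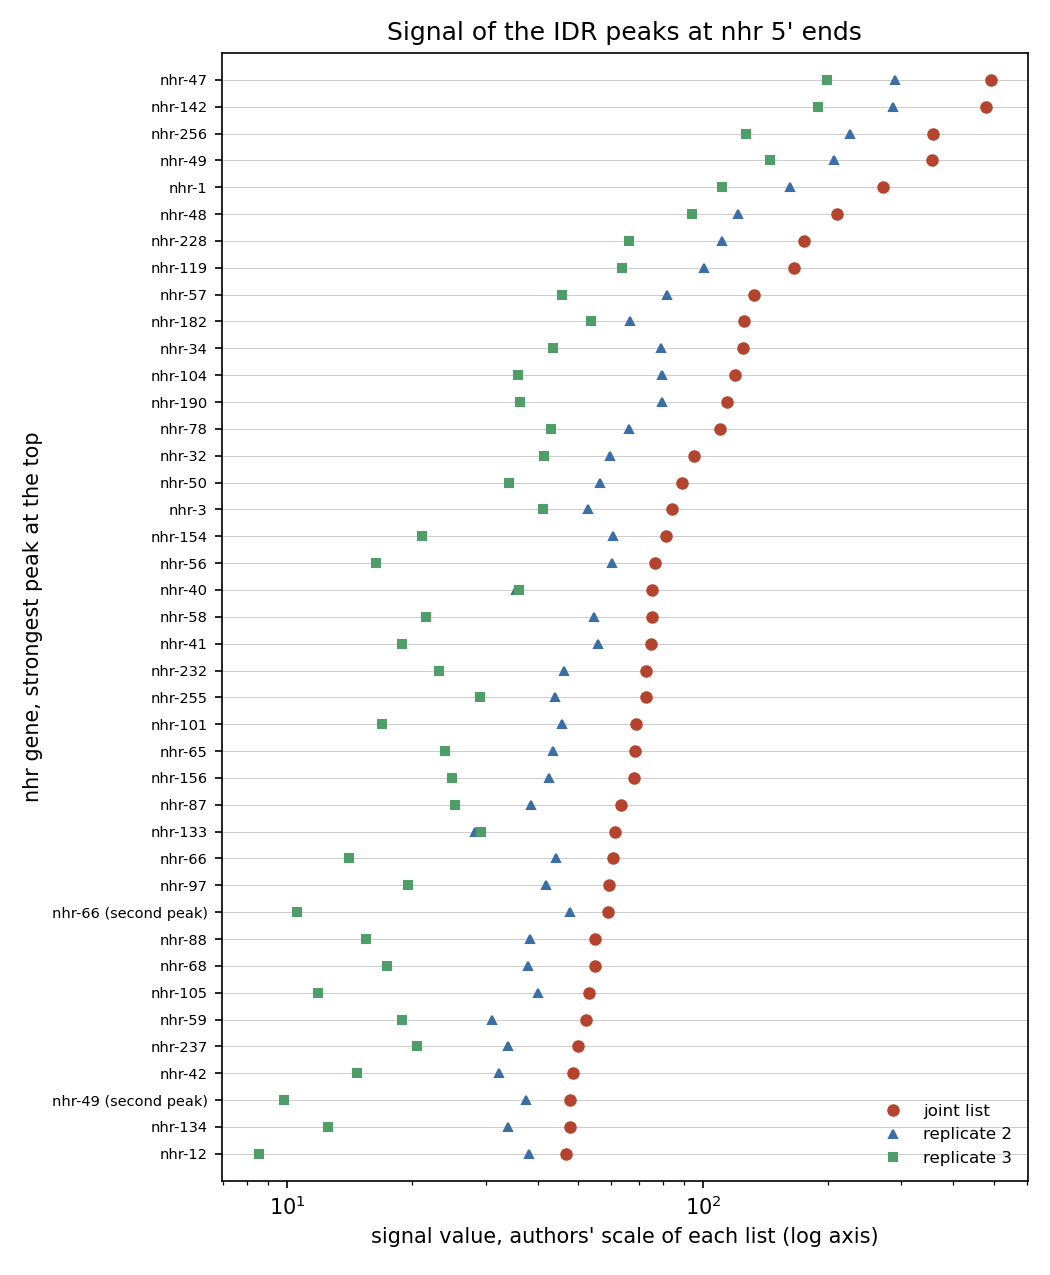
Signal (log axis, the submitters' units) of the window peaks of bound nhr genes in the joint list and in replicates 2 and 3, ordered by joint signal. The 3 lists run together at the strong end (492.4, 290 and 199 at nhr-47) and replicate 3 drops away at the weak end (46.94, 38.2 and 8.55 at nhr-12).

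The remaining bound genes have joint signals from 124.7 to 46.94. Their window peaks had signals of 28.3 to 79.8 in replicate 2 and 8.55 to 43.7 in replicate 3, where nhr-34 was the highest and nhr-12 the lowest. In order of signal they are nhr-34, nhr-104, nhr-190, nhr-78, nhr-32, nhr-50, nhr-3, nhr-154, nhr-56, nhr-40, nhr-58, nhr-41, nhr-232, nhr-255, nhr-101, nhr-65, nhr-156, nhr-87, nhr-133, nhr-66, nhr-97, nhr-88, nhr-68, nhr-105, nhr-59, nhr-237, nhr-42, nhr-134 and nhr-12. At the upper end nhr-104 had 119.1 (79.8 in replicate 2 and 35.9 in replicate 3) and nhr-78 109.7 (66.3 and 43.2). The lowest 5 genes were nhr-59 with 52.28 (31.1 and 18.9), nhr-237 with 49.96 (34.0 and 20.5), nhr-42 with 48.76 (32.2 and 14.8), nhr-134 with 47.79 (34.0 and 12.5) and nhr-12 with 46.94 (38.2 and 8.55). In each of these 7 genes the signal was higher in replicate 2, whose list is on a scale of its own with a top signal of 5782, against 4034 in replicate 3. Several have summits almost on a 5′ end of their own. The summit lay 3 bp downstream at nhr-133, 15 bp upstream at the second peak of nhr-66 and 18 bp upstream at nhr-50. It lay 41 bp upstream at nhr-78, 46 bp downstream at nhr-59, 50 bp at nhr-190, 52 bp at nhr-87, 61 bp at nhr-58, 69 bp downstream at nhr-56, 73 bp at nhr-156 and 89 bp at nhr-104. At nhr-34 and nhr-3 the summits lay 964 and 997 bp upstream, close to the outer edge of the window. Annotated worm 5′ ends are often sites where a leader RNA is spliced on, so the distances are to the annotated ends and not to measured starts of transcription.

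Over all bound receptor genes the summit was upstream of the 5′ end in 34 of 39 (87.2%), against 92.8% of the other bound genes. It was within 300 bp in 21 (53.8%), against 63.8%, and the median position was 289 bp upstream, against 213 bp. Of the 41 window peaks, 30 had their summit outside the receptor gene itself, 6 lay in an intron and 5 in an untranslated exon. Where replicates 2 and 3 are compared below, the unit is these 41 peaks, since nhr-49 and nhr-66 have more than 1.

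**Figure D4:**
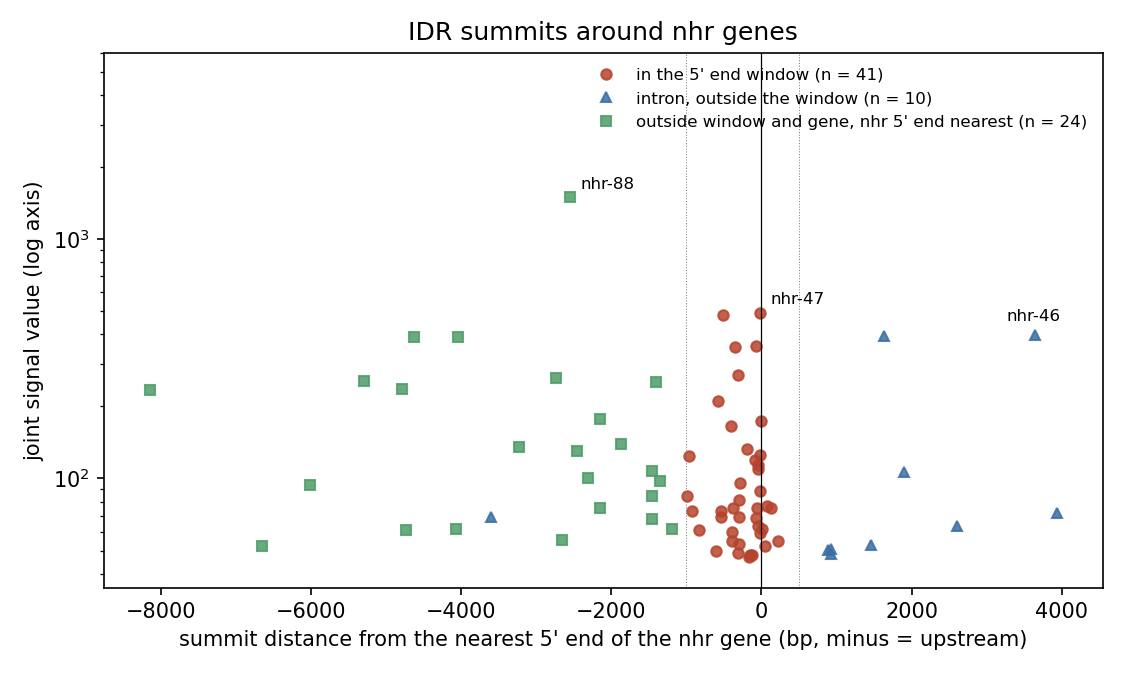
Distance of the summit from the receptor's 5′ end (horizontal axis, bp, negative upstream) against signal (log axis, the submitters' units) for the peaks of nhr genes. Window peaks gather upstream of the end and mostly below a signal of 125, and the strongest peak of all, at nhr-88 with 1500, lies 2555 bp upstream.

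Fewer receptor genes than other genes shared their peak. In 7 of 39 bound receptor genes (17.9%) every window peak was also in the window of another protein-coding gene, against 1958 of 3883 other bound genes (50.4%). All 7 are on chromosome V, where they are 31.8% of 22 bound receptor genes, against 55.2% of the other bound genes. They are nhr-47, nhr-142, nhr-232, nhr-101, nhr-68, nhr-59 and nhr-12. The receptor's own 5′ end was the nearest in 35 of 39 (89.7%), against 74.5% of the other bound genes. The exceptions are nhr-142, nhr-232 (nearest rop-1, 188 bp), nhr-101 (nearest pms-2, a mismatch repair gene, 30 bp) and nhr-68 (nearest H12C20.7, 56 bp). A peak in several windows cannot be assigned to 1 gene, so these genes count as bound by the window rule alone. The median gap to the upstream neighbour was 1285 bp for bound receptor genes, 1595 bp for the unbound ones, 605 bp for other bound genes and 1061 bp for other unbound genes.

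Every window peak of the family had an overlapping region in both replicate lists, as did 4525 of all 4534 IDR peaks. The ranks differed more in replicate 3. Among the strongest 4534 regions of both replicates were 27 of 41 receptor peaks (65.9%), against 3939 of all 4534 IDR peaks (86.9%). Within the 2267 weakest IDR peaks the counts were 17 of 31 (54.8%), against 73.8%. A lower place in replicate 3 accounts for most of this. There 13 of 41 receptor peaks (31.7%) stood below the strongest 4534, against 8.69% of all peaks, while in replicate 2 only nhr-133 did (2.44%, against 4.94%). nhr-12 was the extreme case, at rank 3787 in replicate 2 and 12964 in replicate 3. The ranks in replicates 2 and 3 had a Spearman correlation of 0.766 across the 41 peaks. This describes peaks already chosen by a high signal in the joint list of both replicates. Counting by the strongest 4534 regions of each replicate, 43 receptor genes were bound in replicate 2 (16%, against 19.6% of all genes) and 32 in replicate 3 (11.9%, against 19.4%). The numbers shared with the 39 were 38 and 28. By both replicates 27 receptor genes were bound, against 3586 of all genes (18.0%).

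In a chosen list of nhr- genes with vertebrate or insect counterparts, 2 of 11 were bound. The list is not complete: nhr-49 and the receptors with other symbols are given elsewhere. The bound ones are nhr-48 and nhr-41, a relative of the TR2 and TR4 receptors with 75.04 (55.8 in replicate 2 and 18.9 in replicate 3). The summit at nhr-41 lies in an intron 129 bp downstream of the 5′ end and on a tRNA gene. In the 5′ end windows, weak regions only were found at nhr-85 (38.3), related to Rev-erb, at nhr-23 (15.8), the moulting regulator related to ROR, at nhr-8 (15.6) and at nhr-67 (13.2), related to Tailless. No region of any strength was listed in the windows of nhr-6, nhr-25, nhr-91, nhr-111 or nhr-239.

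Of 13 receptors with known roles in metabolism and stress, 4 were bound, namely nhr-49, nhr-57, nhr-66 and nhr-68. nhr-66, which works with nhr-49 in lipid metabolism, had 60.72 (44.3 and 14.1 in replicates 2 and 3) and 59.06 (48 and 10.6). The second of its peaks ranked 3239 in replicate 2 and 8946 in replicate 3. nhr-68, which with nhr-10 controls the propionate shunt, had 54.89 (38 and 17.4), in the window shared with H12C20.7. Another 8 had weak regions only in their windows, from 45.0 at nhr-13 and 43.0 at nhr-86 to 12.1 at nhr-62. The others in between were nhr-114 (34.3), nhr-14 (27.8), nhr-10 (22.0), nhr-80 (20.8) and nhr-31 (14.9). nhr-176 had none. Of these genes and those of the list before, nhr-6, nhr-10, nhr-14, nhr-31 and nhr-85 also have IDR peaks in an intron or far upstream, given below. In the embryo and epidermis list 1 of 3 was bound, nhr-40, with 75.6 (35.5 and 36.2), and nhr-2 and nhr-60 had no region. These small lists were drawn up with earlier results of these data known, and beside them stands the share of 19.6% over all genes.

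Inside the genes, 8 of 269 receptors (2.97%) had an IDR summit in an intron outside their own 5′ end windows, against 2.18% of all genes by the same rule. The strongest lay in nhr-46 (signal 397.1, in an intron of 7906 bp) and nhr-19 (392.8, in an intron of 4213 bp), where each also held a weaker one (68.79 and 72.07). Next came nhr-3 (106.3), nhr-17 (63.22, on a tRNA gene), nhr-34 (52.49), nhr-85 (50.97), nhr-31 (50.04) and nhr-14 (48.2). 6 of these 8 genes were not bound by the window rule, and in 2 of the 10 summits the 5′ end of another gene was nearer. The peaks of nhr-46 and nhr-19 outrank all but 2 of the 41 window peaks.

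Far upstream, 20 receptors (7.43%) had the nearest 5′ end to at least 1 IDR summit outside their own windows and body. By the same rule it was 4.53% of all genes, where a summit may lie inside another gene. At the receptors no protein-coding gene covered any of these summits. These 24 summits are nearest to those genes, which does not assign them to the genes. The highest was at nhr-88, with 1500 at 2973908-2974238 on chromosome II, 2555 bp upstream, at rank 101 of the joint list, 120 in replicate 2 and 73 in replicate 3. It is also the highest of any receptor peak. nhr-88 had further summits at 237.3 and 93.68, at 4785 and 6013 bp. nhr-20 had 390.3 at 4630 bp, nhr-61 388.9 at 4037 bp, nhr-17 263.1 at 2736 bp, nhr-4 256.7 at 5299 bp and nhr-10 252.2 at 1406 bp. nhr-1, also bound at its window, had 234.4 at 8149 bp. nhr-6, a relative of the NR4A receptors, had only a low one (52.2 at 6654 bp). Of the distal peaks, 12 of 24 are among the 2267 strongest, against 10 of 41 window peaks. The same share over all distal IDR peaks is not given here. The 24 include overlapping peaks at nhr-45 (129.7 and 55.41) that match the same region in each replicate list. Counting windows, introns and distal peaks together, 58 receptors (21.6%) were touched, against 4883 of all genes (24.4%), and 19 of the 58 only through an intron or a distal peak.

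Below the IDR threshold, the submitters' joint list, which was the input to the IDR step and holds background regions by its own description, has 17341 weaker regions with a median signal of 15.6. Of the receptors, 82 (30.5%) had only such a region in a window, against 22.3% of all genes, and 148 (55%) had none of any strength. The median signal of the 82 was 18.7, from 11.4 to 46.2, and 25 had a −log10 q value over 2. In 44 of the 82 a region was present in both replicate lists. The count in both replicate lists has no counterpart here over all genes with only weak regions, so it describes these receptors alone. Beside the count by q value, 4458 of all genes had only weak regions. Among all genes 4784 had a joint region with −log10 q over 2 in a window, and 3922 had an IDR peak there. Among the receptors these numbers were 64 and 39. The strongest were nhr-132 (46.2), nhr-69 (45.8, absent from replicate 3), nhr-13 (45.0), nhr-183 (44.0) and nhr-86 (43.0). nhr-132 lay just outside the list and nhr-12, at 46.94, just inside. Counting every joint region with −log10 q over 2, 64 receptor genes had one (23.8%), against 24.0% of all genes, and on chromosome V 23.4%, against 16.3%. The shortfall against all genes seen at the IDR threshold is absent at this one. 3 weak regions lay in the windows of receptor pairs, nhr-94 and nhr-152, nhr-201 and nhr-202, and nhr-42 and nhr-107. No IDR peak did.

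Of 159 receptors within 10000 bp of another, 17 were bound (10.7%), against 22 of 110 farther away (20.0%). Most close neighbours are on chromosome V, where the counts were 15 of 122 (12.3%), against 7 of 45 farther away (15.6%), beside 12.9% of all genes there. Off V they were 2 of 37 (5.41%), against 15 of 65 (23.1%), beside 21.9% of all genes there, so the gap was larger off V. A run of 9 receptors on chromosome V at 2210510-2235180 holds 3 bound genes, nhr-133, nhr-56 and nhr-134. Another run of 9, at 2257420-2296977, holds nhr-182, nhr-59 and nhr-228. A further run of 9, at 3844429-3886204, holds no bound gene, and 8 of its genes have no region. The largest run, 12 genes at 451451-497297, holds no bound gene and 7 with weak regions. nhr-101 and nhr-68 lie 891 bp apart and are both bound, each at a peak nearer another gene.

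The sequence under the window peaks was searched in the 201 bp around each summit, on both strands. The whole 8-letter E2F words were in 0 of 41 receptor peaks (rough upper limit of 3 counts, 7.32%), against 437 of all 4534 IDR peaks (9.64%). Among the 2267 weakest IDR peaks the share was 7.54%, and in windows upstream of all 5′ ends 3.29%. With the last 7 letters, nhr-48 and nhr-65 matched (4.88%), against 18.7% of all peaks. At the 34 intronic and distal receptor peaks, 1 held a whole word (2.94%) and 4 held the last 7 letters (11.8%). The last 5 letters alone were in 18 of 41 receptor peaks (43.9%), against 69.1% of all. This split by strength. Among the 2267 strongest peaks 9 of 10 receptor peaks matched (90.0%), against 76.3%, with nhr-119 the exception. Among the weakest 2267 it was 9 of 31 (29.0%), against 61.8%, a share close to the windows upstream of receptor 5′ ends (27%) and of all 5′ ends (30.0%). TTTGAA, a word of cell cycle promoters, was in 12 of 41 (29.3%), against 36.1% of all peaks and 49.2% of upstream windows. The upstream windows had a median GC content of 33.8% (receptors) and 33.3% (all 5′ ends), against 40.8% at the 31 weaker receptor peaks. They differ in base content, so they are no like-for-like baseline for the E2F words or for TTTGAA.

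A different pair of words was common at the receptor peaks. GAGAG was in 36 of 41 (87.8%), against 59.3% of all IDR peaks, while GTCTC was in 33 of 41 (80.5%), against 53.0%. One or the other was in 40 of 41 (97.6%), against 73.4%, the exception being nhr-101. The share held in both parts of the list, with 10 of 10 receptor peaks among the strongest 2267 (73.5% of all there) and 30 of 31 among the weakest (96.8%, against 73.4%). Windows upstream of receptor 5′ ends had 51.7%, and upstream of all 5′ ends 44.3%. At the intronic and distal receptor peaks it was 33 of 34 (97.1%). No share over all intronic and distal IDR peaks is given here, so this is not shown to be particular to the receptors. Some of these peaks lie on long CT repeats, as at nhr-6, nhr-88 and nhr-5. The words were chosen after the sequences were seen, so the difference is a description with no test, and the reason for it was not tested. Median GC content was 41.8% at receptor peaks and 42.3% at all IDR peaks. tRNA genes overlapped 2 of 41 (4.88%, nhr-41 and nhr-255), against 3.07% of all IDR peaks and 5.16% of the 2267 weakest, to which both peaks belong.

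**Figure D5:**
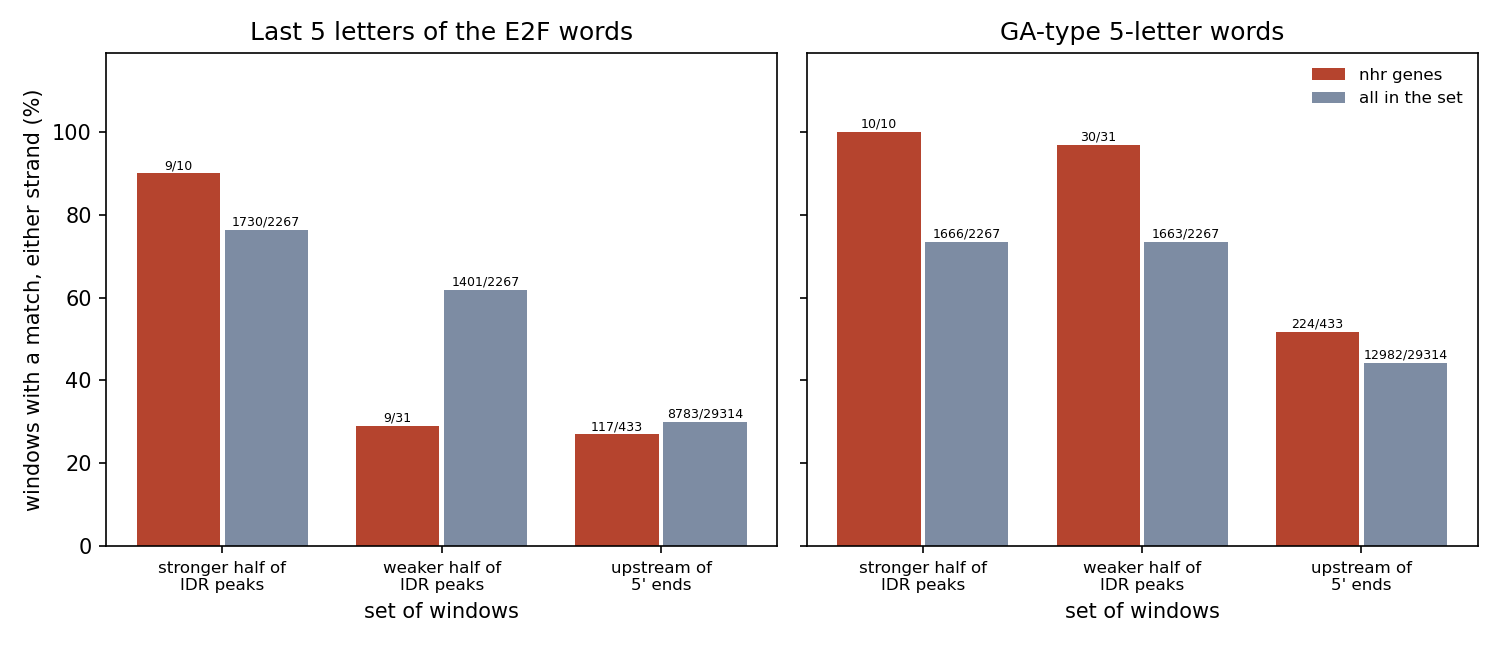
Share of 201 bp windows (vertical axis, %) with a match on either strand, for nhr genes and for all windows of each set, with counts above the bars. The left panel shows the last 5 letters of the E2F words, which drop to 29.0% of nhr peaks at the weak end, and the right panel shows the GA-type words, which stay at or above 96.8% of nhr peaks at both ends.

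None of the receptors with other symbols was bound. daf-12, sex-1, fax-1, unc-55 and odr-7 gave 0 of 5 (rough upper limit of 3 counts, 60%), beside 19.6% of all genes. A weak region of 11.5 lay at daf-12. Of 7 cofactors and ligand enzymes 2 were bound, both at a higher rank than any receptor window peak. These are cbp-1, the worm p300/CBP coactivator, with 1095 at rank 174, and din-1, a DAF-12 corepressor, with 717.7 at rank 340. Their summits lay 884 bp (cbp-1) and 759 bp (din-1) upstream, in the outer part of the window. mdt-15, a Mediator subunit that works with NHR-49, had a weak region of 21.5. Of 5 target genes 1 was bound, acs-2, an acyl-CoA synthetase gene controlled by nhr-49, with 130.3 at 692 bp upstream. fat-6, a desaturase gene, had a weak region of 23.5.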

How the data were processed

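The ce11 peak lists used are the thresholded joint IDR list, the joint list from before that threshold and 1 list for each replicate. Peak signal was deposited on the authors' own scale, and peak q-values were deposited as −log10 values. For the peak caller, the aligner and the IDR threshold, nothing is given in the sources used here, and the read depth is unknown. Gene models and tRNA genes came from Ensembl release 115, and sequence from RefSeq WBcel235. Genes, 5′ ends, windows (1000 bp upstream to 500 bp downstream) and nearest 5′ ends were computed with Python 3.11.15, pandas 2.3.3 and numpy 2.4.6, after the steps had been tested on simulated data. Replicate regions were matched to joint peaks by an overlap of at least 1 bp. No test was run, because there is 1 group and the members were chosen by symbol. Members and lists were chosen with earlier results of these data known. Genes named individually are the 10 strongest bound ones, bound ones near their own 5′ end, functional lists, intronic cases and threshold cases. The last 5 letters of the E2F words, and the words GAGAG and GTCTC, were added after the sequences were seen. Windows of 300 bp, nearest-only assignment, the stronger 2267 peaks, each replicate alone and a q threshold were tried as alternatives.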

Additional observations from a re-analysis of the deposited data

How the results depend on the processing

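The count of 39 bound receptor genes moved to 23 with windows of 300 bp (8 off chromosome V), to 10 with the stronger 2267 peaks (6 on V and 4 off V) and to 64 with every joint region over the q threshold (39 on V). Under those settings the share for receptors and for all genes was 8.55% and 12.9%, 3.72% and 11.8%, and 23.8% and 24.0%. On chromosome V it was 8.98% and 8.59%, 3.59% and 7.35%, and 23.4% and 16.3%, and with replicate 2 or replicate 3 left out 10.2% and 12.7%, and 15% and 12.9%. The number with their own 5′ end nearest was 23, 9 and 59, and with windows of 300 bp or nearest-only assignment no bound receptor shared its peak (0), while with the stronger peaks 2 did. Intronic summits were in 2 receptors with the stronger peaks, 14 over the q threshold and 5 to 7 with 1 replicate left out. Sharing genes numbered 3 to 7 with 1 replicate left out. The median percentile was 44.6 with the stronger peaks, against 55.9 for other bound genes, and 38 over the q threshold, against 65.6. It was 28.6 to 34.9 with 1 replicate left out, against 61.0 and 60.9. The rank of the receptors below the other bound genes held in both replicates alone. The share of receptor peaks with a whole E2F word was 0 within 50 bp of the summit and 2.44% within 150 bp. It was 5.88% over the q threshold, 3.12% with replicate 2 left out and 2.22% with replicate 3 left out. No paired analysis was possible because there is a single group. The depth is unknown, and its effect on the weak regions was not tested.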
